A study of Mus musculus with 6 samples.

Results

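The 8 mouse Gimap genes were read in double-positive thymocytes with and without the transcription factor Ets1. They were taken as the probe sets annotated to exactly 1 gene, that gene being Gimap1, Gimap3, Gimap4, Gimap5, Gimap6, Gimap7, Gimap8 or Gimap9. All 8 genes were measured, by 9 such probe sets of 41345 on the array, and they were 8 of the 22180 genes tested. Gimap1 had 2 probe sets and was read at the brighter by mean of 6 arrays. The study measured RNA on 6 arrays, 3 of wild-type and 3 of Ets1-/- C57BL/6 mice aged 5 to 6 weeks. CD4+ CD8+ thymocytes, the immature T cells that carry both coreceptors, had been crosslinked with formaldehyde and then taken with magnetic beads against CD8 and against CD4. The labels give the Ets1 null genotype in the whole animal, with no Cre driver, so other cells of the thymus lacked Ets1 as well. Replicates were litter-mate cohorts, and the labels state neither how many animals went into each array nor whether arrays of the same number came from one litter.

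GIMAP proteins (GTPases of the immunity-associated protein family) are small guanine-nucleotide-binding proteins of lymphocytes that sit on intracellular membranes. They are known for their part in the survival of lymphocytes, and loss of Gimap5 leaves rodents with few peripheral T cells. Several members are known to be switched on as double-positive thymocytes mature into CD4 or CD8 single-positive cells. Ets1 is a lymphocyte transcription factor of the ETS family, which binds DNA around a GGAA core.

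The 8 genes lie side by side within 123.7 kb at chr6:48647186-48770851 (GRCm38.p6, RefSeq), in the order Gimap8, Gimap9, Gimap4, Gimap6, Gimap7, Gimap1, Gimap5 and Gimap3. The RefSeq promoter table held all 8, with 9 windows because Gimap8 had 2 starts. Gimap3 and Gimap6 were on the minus strand and the others on the plus strand. Of the genes with both groups apart, the 3 that were higher in Ets1-/- are shown with 1 of those that were lower, as the 250 bases before the RefSeq start, read 5′ to 3′ along the gene. Capitals mark 4 short motifs on either strand: AGGAAG and CGGAAG, which are ETS-type and share the letters GGAAG, the RUNX-type TGTGGT and the FOXO-type TGTTTAC.
Gimap3 (chr6:48770852-48771101, strand -): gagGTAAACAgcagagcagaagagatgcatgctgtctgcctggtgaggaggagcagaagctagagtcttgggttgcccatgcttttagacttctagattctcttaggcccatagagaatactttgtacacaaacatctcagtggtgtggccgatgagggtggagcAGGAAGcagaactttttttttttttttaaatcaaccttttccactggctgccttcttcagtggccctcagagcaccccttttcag
Gimap4 (chr6:48684328-48684577, strand +): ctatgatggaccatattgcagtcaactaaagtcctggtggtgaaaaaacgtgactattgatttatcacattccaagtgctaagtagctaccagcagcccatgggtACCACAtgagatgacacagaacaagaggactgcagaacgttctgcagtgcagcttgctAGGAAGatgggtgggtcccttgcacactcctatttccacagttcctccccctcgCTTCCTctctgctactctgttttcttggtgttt
Gimap7 (chr6:48718371-48718620, strand +): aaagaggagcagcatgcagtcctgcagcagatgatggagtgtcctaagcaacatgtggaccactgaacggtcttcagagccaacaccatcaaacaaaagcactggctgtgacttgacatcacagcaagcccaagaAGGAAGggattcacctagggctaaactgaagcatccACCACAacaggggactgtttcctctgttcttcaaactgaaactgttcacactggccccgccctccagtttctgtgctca
Gimap6 (chr6:48708245-48708494, strand -): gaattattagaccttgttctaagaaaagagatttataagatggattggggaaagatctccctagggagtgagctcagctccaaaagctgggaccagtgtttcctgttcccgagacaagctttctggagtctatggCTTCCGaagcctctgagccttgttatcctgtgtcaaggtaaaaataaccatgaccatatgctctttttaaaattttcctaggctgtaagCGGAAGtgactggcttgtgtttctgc

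AGGAAG stood in 7 of the 9 windows, against 29.5% of the 32851 RefSeq windows of the same length, and CGGAAG in 3 of 9 against 13.6%. In the windows shown, Gimap3 and Gimap7 held AGGAAG at 1 place each, Gimap4 at 2 places and Gimap6 at none, while Gimap6 held CGGAAG at 2 places. TGTGGT stood in 3 of 9 windows (Gimap1, Gimap4 and Gimap7) against 14.0%, and TGTTTAC in 1 of 9 (Gimap3) against 3.17%. The AGGAAG windows included both those of genes that were higher and those of Gimap1, Gimap5, Gimap8 and Gimap9. Gimap6 was the only member with none, so its window does not stand for the other lower members. These matches describe the letters in the window and no binding was measured.

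Facts of the arrays bear on what follows. The values are on a log2 scale, and the median array signal was 3.66 in Ets1-/- replicate 1 and between 4.19 and 4.33 on the other 5 arrays. Bright genes need not share that difference: Dntt had 10.39 in Ets1-/- replicate 1 and 10.42 and 10.41 in replicates 2 and 3. Over all genes the median difference, Ets1-/- minus wild type on the log2 scale, was -0.22, and it was -0.01 once the arrays were centred on their medians. Ets1 itself had 9.11, 9.32 and 9.17 in wild type and 9.27, 9.22 and 8.79 in Ets1-/- (limma adjusted p = 0.860). Whether its probe set lies outside the deleted part was not tested, and its signal does not check the labels. Markers of double-positive thymocytes were bright in both groups. Summed linear signals over 12 measured markers, among them Cd4, Cd8a, Cd8b1, Rag2 and Dntt, were 21585 to 22295 in wild type and 21578 to 22653 in Ets1-/-. Of these 12, 11 did not pass the test and 1 rose: Ptcra, which encodes the pre-T-cell receptor alpha chain, by 1.50 ± 0.25 (SE; limma adjusted p = 0.0282). With 1 array left out, Ptcra was still called in 1 of 6 fits, the one lacking Ets1-/- replicate 1 (adjusted p up to 0.116 in the others).

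The Gimap cluster did not move as a block. In Ets1-/- Gimap3 and Gimap4 rose, by 3.07 and 1.82 on the log2 scale, and Gimap7 had a difference of 2.20 that did not pass the test. Gimap1, Gimap6, Gimap8 and Gimap9 had small negative differences, from -0.39 to -0.92, and Gimap5 had 0.38 with groups that overlapped. By limma with p adjusted over all genes, 2 of 8 members were higher, where 1.29% of all genes were, and 0 were lower, where 0.568% were. At an unadjusted p under 0.05 there were 3 higher and 1 lower, where 4.54% and 8.62% of all genes were. The 2 genotypes had no overlap in values for 7 of the 8 members, 3 of them higher and 4 lower, where 21.9% of all genes had none, 5.76% higher and 16.1% lower. For 3 of the 4 lower members the values overlapped once the arrays were centred on their medians, but not with quantile normalization or cyclic loess. The median difference of the 8 members was -0.01 and that of all genes -0.22. In bulk RNA, fewer cells of a type and less RNA per cell cannot be told apart.

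**Figure D1:**
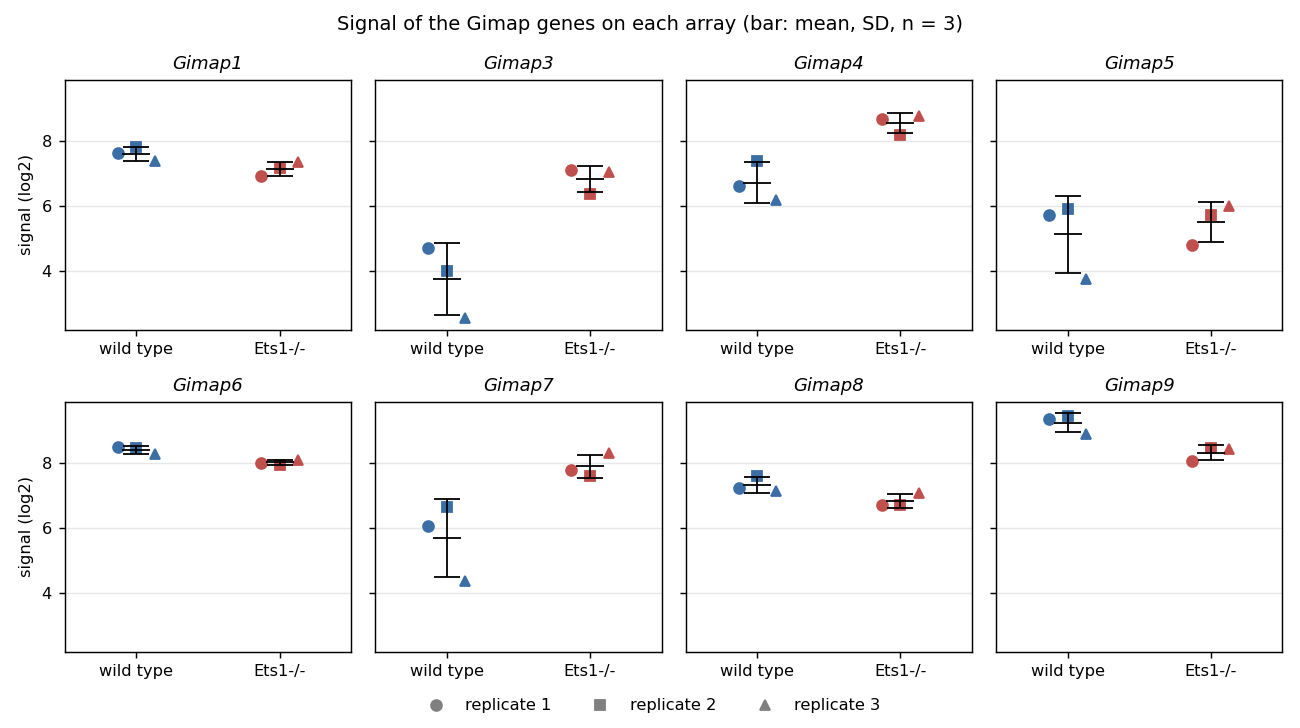
Signal (log2) of each Gimap gene on the 3 wild-type (blue) and 3 Ets1-/- (red) arrays, with symbols for replicates and bars for the mean and SD (n = 3). All Ets1-/- values lie above all wild-type values for Gimap3, Gimap4 and Gimap7, below them for Gimap1, Gimap6, Gimap8 and Gimap9 by smaller distances, and overlap for Gimap5. Centred on array medians, Gimap1, Gimap6 and Gimap8 overlap too, but not with quantile normalization or cyclic loess.

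Gimap3, Gimap5 and Gimap1 are the members with a hydrophobic tail that anchors them in membranes, and they are known for lymphocyte survival. Gimap3 had 4.72, 4.02 and 2.56 in wild-type replicates 1 to 3 and 7.09, 6.38 and 7.05 in Ets1-/- replicates 1 to 3. Every Ets1-/- array lay above every wild-type array, and wild-type replicate 3 was the lowest of all. The means were 3.77 ± 1.10 and 6.84 ± 0.40 (SD, n = 3 each), a log2 fold change of 3.07 ± 0.52 (SE; 95% interval 1.86 to 4.29; limma adjusted p = 0.0305). An exact permutation test gave p = 0.1, the smallest that 3 arrays against 3 allow.

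The wild-type mean of Gimap3 lay under 4.13, the median signal of all probe sets, so the size of the rise depends on how dim signals are scaled. With a pseudocount of 16 added on the linear scale it was 2.08, and it ranged from 2.08 to 3.55 over all 19 alternatives that gave a value. Gimap3 kept its call without wild-type replicate 1 or 3. It lost it without wild-type replicate 2 (adjusted p = 0.0683) and without Ets1-/- replicate 1, 2 or 3 (0.107, 0.0776 and 0.0981).

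Gimap5, whose loss in rats underlies a heritable lymphopenia, gave no such separation. It had 5.72, 5.90 and 3.77 in wild type and 4.80, 5.74 and 5.99 in Ets1-/-. The groups overlapped, and wild-type replicate 3 was again the lowest. The difference was 0.38 ± 0.59 (SE; 95% interval -0.99 to 1.74; limma adjusted p = 0.795; exact permutation p = 0.6), and without wild-type replicate 3 it was -0.30. That interval is wide and holds changes of either sign. Gimap3 and Gimap5 are closely related, and signal of one on the probe set of the other was not tested.

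Gimap1, which mature T and B lymphocytes need for their survival, had 7.64, 7.80 and 7.37 in wild type and 6.93, 7.15 and 7.35 in Ets1-/-. The difference was -0.46 ± 0.24 (SE; 95% interval -1.01 to 0.09; limma adjusted p = 0.475). Its second probe set was dim, with 0.84 to 2.20 in wild type and 1.89 to 3.23 in Ets1-/-, and it pointed the other way (1.23, adjusted p = 0.440 over all probe sets). Averaging both probe sets gave 0.39 (adjusted p = 0.564), so the sign for Gimap1 rests on the choice of probe set.

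Gimap4 and Gimap7 belong to the members without such a tail. Gimap4 is known for hastening the death of T cells that have begun apoptosis. It had 6.60, 7.39 and 6.17 in wild type and 8.68, 8.18 and 8.76 in Ets1-/-. The lowest Ets1-/- value exceeded the highest wild-type value, that of replicate 2. The means were 6.72 ± 0.62 and 8.54 ± 0.32 (SD, n = 3 each), and Gimap4 rose by 1.82 ± 0.35 on the log2 scale (SE; 95% interval 1.01 to 2.64; limma adjusted p = 0.0499).

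This call for Gimap4 lay at the threshold of 0.05. With 1 array removed, it held in the fit lacking wild-type replicate 2 (2.16, adjusted p = 0.0305). It was lost without wild-type replicate 1 or 3 (0.150 and 0.137) and without Ets1-/- replicate 1, 2 or 3 (0.121, 0.0983 and 0.143). It was also lost with the replicate number as a block (1.82, adjusted p = 0.106). Its size moved little, from 1.55 to 2.16 over all 20 alternatives. Across them the adjusted p ran from 0.000731 to 0.237.

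Gimap7, a GTPase found on lipid droplets that can pair with other members, had 6.08, 6.64 and 4.37 in wild type and 7.78, 7.61 and 8.29 in Ets1-/-. The groups did not overlap, and wild-type replicate 3 stood well below the other wild-type arrays. The difference of 2.20 ± 0.55 (SE; 95% interval 0.92 to 3.47) did not pass the test (limma adjusted p = 0.115). It was 1.54 without wild-type replicate 3. With a pseudocount of 16 it was 1.84 and was called (adjusted p = 0.0372).

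The remaining members had small differences in the other direction. Gimap9 had the largest of these, with 9.35, 9.44 and 8.89 in wild type and 8.05, 8.46 and 8.43 in Ets1-/-. Its difference was -0.92 ± 0.25 (SE; 95% interval -1.51 to -0.33), which did not pass the test over all genes (limma adjusted p = 0.156). It was called lower in 5 of 20 alternatives, for example when genes below the 75th percentile of signal were removed (adjusted p = 0.0408). In the other 15 its adjusted p lay between 0.0603 and 0.466. Gimap8, the longest member and the one with repeated GTPase domains, had 7.22, 7.59 and 7.15 in wild type and 6.70, 6.70 and 7.07 in Ets1-/- (-0.50 ± 0.24, SE; adjusted p = 0.444). Gimap6, a partner of the autophagy protein GABARAPL2, had 8.50, 8.45 and 8.27 against 8.0, 7.95 and 8.09 (-0.39 ± 0.21, SE; adjusted p = 0.491).

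The size and separation of these small differences depended on how the arrays were scaled. With each array centred on its median, the groups of Gimap1, Gimap6 and Gimap8 overlapped, with differences of -0.25, -0.18 and -0.29, while Gimap9 stayed apart with -0.70 (limma adjusted p = 0.199). With quantile normalization or cyclic loess all 4 were apart and lower. These checks of overlap were chosen after seeing the data, and 9.30% of all genes were apart and lower after median centring, 12.1% with quantile normalization and 9.93% with cyclic loess. The shares apart and higher were 11.2%, 10.1% and 12.0%. Gimap3, Gimap4 and Gimap7 stayed apart and higher under all 3 of these scalings, with 3.28, 2.03 and 2.41 after median centring. Relative to the median gene of -0.22, the 4 lower members were at -0.24 (Gimap1), -0.17 (Gimap6), -0.28 (Gimap8) and -0.70 (Gimap9).

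Differences between members within an array are free of a shift common to its genes. Gimap4 minus Gimap9 was -2.75, -2.05 and -2.72 on the wild-type arrays and 0.63, -0.28 and 0.33 on the Ets1-/- arrays, a change of 2.74. For Gimap3 minus Gimap5, both among the tail-anchored members, it was -1.01, -1.88 and -1.21 against 2.28, 0.64 and 1.06, a change of 2.70. Gimap4 minus Gimap7 overlapped between groups (0.52, 0.75 and 1.80 against 0.91, 0.56 and 0.46, a change of -0.38, exact permutation p = 0.6), which does not show that the 2 genes moved alike. Of all 28 pairs of members, 20 did not overlap. Among these were all 15 pairs of Gimap3, Gimap4 or Gimap7 with another member, a grouping made after the values were seen. This was fixed for pairs with Gimap1, Gimap6, Gimap8 or Gimap9, since the 2 genes were already apart in opposite directions. Of these 15, only the pairs with Gimap5 could have come out otherwise. A share over all pairs of genes was not computed. For each of the 20 pairs the exact permutation p was 0.1, the smallest possible, so no pair could pass 0.05. These values compare changes, since levels of different probe sets cannot be compared.

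Among the wild-type arrays, replicate 3 was the lowest for 8 of 8 members, where it was the lowest for 34.5% of all genes. Replicate 2 was the highest wild-type array for 6 of 8 members, where it was so for 31.9%. The spread was uneven: the wild-type SD was 1.10 for Gimap3, 1.18 for Gimap5, 1.18 for Gimap7 and 0.62 for Gimap4, and 0.12 to 0.30 for the other members. Members with a large difference between genotypes were thus among those with a large spread within wild type, together with Gimap5. In Ets1-/- the SD lay between 0.07 and 0.62, and replicate 3 was the highest array for 6 of 8 members (44.3% of all genes). Ets1-/- replicate 2 was the lowest for 5 of 8 (8.96% of all genes) and replicate 1 for 3 of 8 (79.6%). Summed linear signals of mature single-positive T-cell markers were also lowest in wild-type replicate 3 (229, against 273 and 293 in replicates 1 and 2), as were those of macrophage markers (651, against 786 and 761). Other lists had their highest wild-type sum there, among them B-cell markers (140, against 103 and 117) and gamma-delta T-cell markers (87.5, against 67.4 and 83.2). Their part in the spread of the Gimap genes was not tested.

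The genes flanking the cluster gave counts near those of all genes. Of the 20 protein-coding genes nearest to it, 10 on each side, 18 were measured, and 0 were higher or lower by limma (2 were lower at an unadjusted p under 0.05, Krba1 and Igf2bp3), where 1.86% of all genes were called and 13.2% had an unadjusted p under 0.05. Beside Gimap8, Zfp775 was at -0.11, Repin1 at 0.39 and Gm5111 at -0.38. Beside Gimap3, the membrane proteins Tmem176b and Tmem176a were at 0.37 and 0.53, and the amine oxidase Aoc1 at -0.62. Their adjusted p lay between 0.476 and 0.853. The median difference of the 18 neighbours was -0.29. Inside the cluster, Gimap4, Gimap7 and Gimap3, each higher on every Ets1-/- array, alternated along the chromosome with members that were not: Gimap6 lies between Gimap4 and Gimap7, and Gimap1 and Gimap5 lie between Gimap7 and Gimap3.

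**Figure D2:**
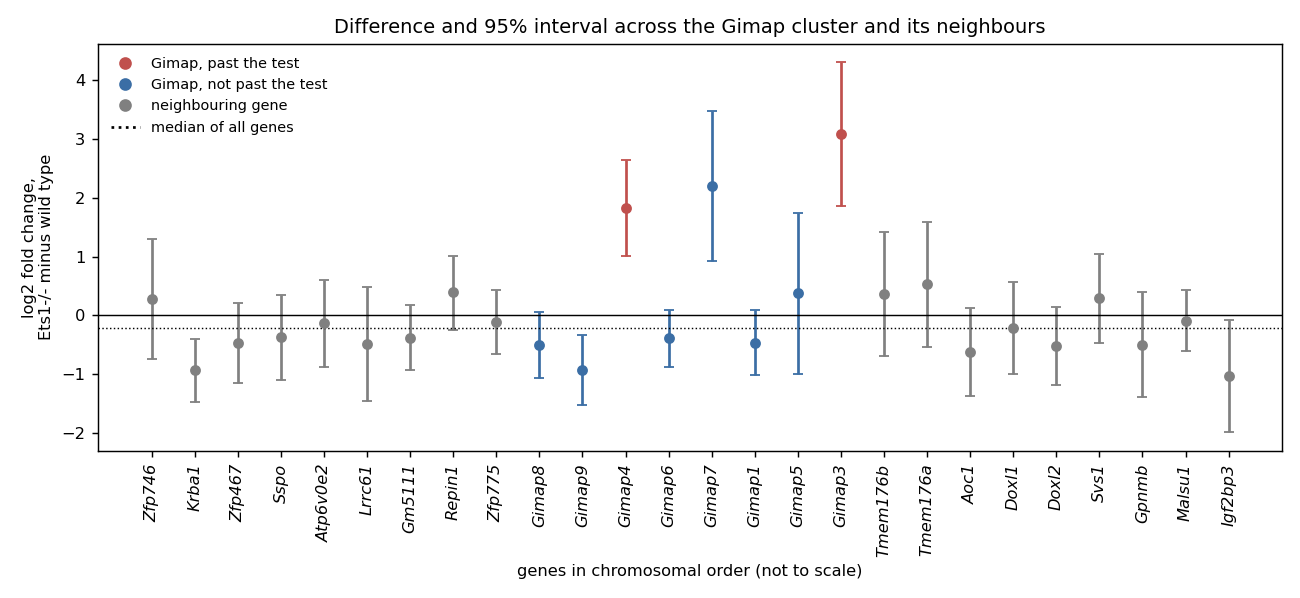
Log2 fold change (Ets1-/- minus wild type, limma, with its 95% interval) of the 8 Gimap genes and 18 measured neighbours in chromosomal order, spaced evenly and not to scale; the dotted line is the median of all genes (-0.22). The intervals of Gimap4, Gimap7 and Gimap3 lie wholly above 0, and they alternate with members whose values lie near or below it.

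Genes with the most similar pattern over the 6 median-centred arrays were named by the root-mean-square difference of their deviations, among 10642 genes above the median signal. The choice used these same arrays, so a difference and p near those of the member follow from it and are no separate result. Nearest to Gimap3 were Phf11b (0.246), the complement component C1qc (0.253) and the adhesion molecule Vcam1 (0.253), which rose by 2.76, 3.08 and 2.94 (limma adjusted p = 0.0246, 0.0254 and 0.0245). Nearest to Gimap4 were the chemokine receptor Ccr2 (0.147), the integrin Itgb7 (0.160) and the lysosomal protease Ctsb (0.173). Itgb7 and Ctsb rose by 1.90 and 1.79 (adjusted p = 0.0460 and 0.0342), and Ccr2 was at 1.71 (0.0586). In fits that left out 1 array these calls were often lost: Phf11b, C1qc, Vcam1, Itgb7 and Ctsb kept theirs in 3, 3, 2, 1 and 1 of 6. To the mean of the 8 members, which averages opposite directions, the nearest were Use1, Ndfip1, Tns3, Gramd1b and Psg23 (0.132 to 0.145), none of them called.

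Genes of T-cell maturation changed in both directions. Of 32 measured genes of a mature T-cell list, 5 rose and 1 fell, where 1.29% and 0.568% of all genes did, and their median difference was 0.42 against -0.22 for all genes. These counts moved with the processing, from 1 to 15 higher and from 1 to 5 lower over the alternatives. Klf2, the transcription factor that drives thymic exit, had 4.35, 4.23 and 4.81 in wild type and 8.17, 8.0 and 8.02 in Ets1-/-. S1pr1, which senses the lipid that draws mature thymocytes into the blood, had 4.17, 3.92 and 3.34 against 7.25, 7.19 and 7.60. Both sets of values were far apart, with differences of 3.60 and 3.54 (adjusted p = 0.000578 and 0.00110). Ms4a4b and the class I molecule H2-K1 also rose, by 2.94 and 2.01, and both kept their calls in all 6 fits that left out 1 array. Tespa1, an adaptor of T-cell receptor signalling, fell by 1.72 (adjusted p = 0.00811).

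Survival genes and reported partners of GIMAP proteins were read next. Of 15 measured, 1 rose and 0 fell, where 1.29% and 0.568% of all genes did, and at an unadjusted p under 0.05 there were 4 higher and 1 lower, where 4.54% and 8.62% were. Over the 15, the median difference was 0.01. The one that rose was Bcl2a1a, a BCL2-family survival gene, with 4.95, 4.75 and 4.05 in wild type and 7.47, 7.29 and 7.85 in Ets1-/- (2.95 ± 0.31, SE; adjusted p = 0.00331). Its near-identical copies were not measured on their own, and a signal shared with them cannot be told apart. Bcl2, which blocks apoptosis, had 9.22, 9.57 and 8.16 against 10.00, 9.81 and 9.95 (0.94, adjusted p = 0.333). Il7r, the receptor of the survival cytokine interleukin 7, had 5.25, 4.64 and 4.11 against 7.33, 5.98 and 6.69 (2.0, adjusted p = 0.0663). In both genes wild-type replicate 3 was the lowest array, as in the Gimap genes. Gabarap, an autophagy protein, was at 0.67 (adjusted p = 0.208).

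Other GTPase families of immunity were read for comparison. Many genes of the IRG, GBP and Mx families, though not all, are induced by interferons. Of 16 measured genes of these families, 2 rose and 0 fell, where 1.29% and 0.568% of all genes did. The median difference of the 16 was 0.68. At an unadjusted p under 0.05, 9 were higher and 1 lower, against 4.54% and 8.62% of all genes. Gbp9 rose by 1.74 (adjusted p = 0.0197) and Iigp1 by 4.54 (0.0261), the latter from a wild-type mean of 1.32 and by 1.98 with a pseudocount of 16. Gbp9 kept its call in 2 and Iigp1 in 4 of the 6 fits that left out 1 array. Whether they and the Gimap genes differ as families was not tested.

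Markers of some other cells were also higher in Ets1-/-. Of 13 measured macrophage markers, 10 rose and 0 fell. Of all genes 1.29% rose and 0.568% fell, the shares to set beside the marker counts that follow as well. The summed linear signal of the macrophage markers was 651 to 786 in wild type and 3160 to 4272 in Ets1-/-, with Cd14 and Csf3r below the median signal in both groups. The growth factor receptor Csf1r, for example, had 4.65, 4.61 and 4.38 against 7.45, 7.80 and 8.33. Of 11 dendritic-cell markers, 6 rose and 0 fell (sums 486 to 589 and 3436 to 3695, with Flt3 below the median signal in both groups). At an unadjusted p under 0.05 there were 7 higher and 1 lower, where 4.54% and 8.62% of all genes were. The 6 were the class II genes H2-Aa at 3.48, H2-Ab1 at 3.65 and H2-Eb1 at 4.11, with Itgax at 3.67, Irf8 at 2.51 and Bst2 at 1.54. The other 5, markers more particular to dendritic cells, did not pass. Siglech was at 0.81 and Xcr1 at -1.15, higher and lower at an unadjusted p under 0.05. Zbtb46 was at -0.38, Batf3 at -0.25 and Flt3 at 0.03. Of 11 B-cell markers, 6 rose and 0 fell (sums 103 to 140 and 439 to 883; Ebf1, Blk and Cr2 below it in both), among them Cd79a at 4.20, from a wild-type mean of 2.60 under the median signal, and at 2.51 with a pseudocount of 16.

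Of 9 markers of mature single-positive T cells 4 rose and 0 fell, where 1.29% and 0.568% of all genes did. Their sums were 229 to 293 in wild type and 952 to 1155 in Ets1-/-, with Zbtb7b below the median signal in both groups. At an unadjusted p under 0.05 there were 6 higher and 0 lower, where 4.54% and 8.62% of all genes were. The 4, Klf2, S1pr1, Ms4a4b and Itgb7, also belong to the mature T-cell list. The other 5 did not pass the test. Il7r was at 2.0 and Cd40lg at 0.66, both higher at an unadjusted p under 0.05. The lineage regulators Zbtb7b and Runx3 were at -0.19 and 0.40 and the homing receptor Ccr7 at -0.07. Of 6 gamma-delta T-cell markers 2 rose, Maf at 3.46 and Blk at 2.99, and 0 fell. Blk was counted with the B-cell markers too. Sums over the 6 were 67.4 to 87.5 in wild type and 199 to 380 in Ets1-/-. Maf was by far the brightest in Ets1-/-, with a mean of 7.83, against at most 4.17 for the others. Sox13, Il23r, Blk and Cd163l1 lay below the median signal in both groups. Il17a was at 0.66, and Sox13, Il23r and Cd163l1 were at -0.42, -0.45 and -0.50, none of these 4 passing. Of 8 natural killer markers 0 passed the test, with sums of 210 to 355 in wild type and 399 to 674 in Ets1-/-. Their median difference was -0.06, where that of all genes was -0.22. Ncr1, Klrb1c, Eomes and Klre1 lay below the median signal in both groups. At an unadjusted p under 0.05, 2 of the 8 were higher and 1 lower, where 4.54% and 8.62% of all genes were. Of 10 neutrophil, 10 endothelial, 4 erythroid and 8 thymic epithelial markers, 0 passed (0 higher and 1, 5, 0 and 0 lower at an unadjusted p under 0.05, against the same shares). Most of the neutrophil and endothelial markers, 7 and 8 of 10, lay below the median signal in both groups. Neutrophil sums were 117 to 155 in wild type and 81.0 to 112 in Ets1-/-, and endothelial sums 265 to 363 and 116 to 186. Lymphocytes and some myeloid cells can express Gimap genes, and the part of each cell type in the rises of Gimap3 and Gimap4 was not tested. The summed signal of the 8 Gimap genes itself overlapped between groups, at 1202 to 1804 in wild type and 1467 to 1857 in Ets1-/-.

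**Figure D3:**
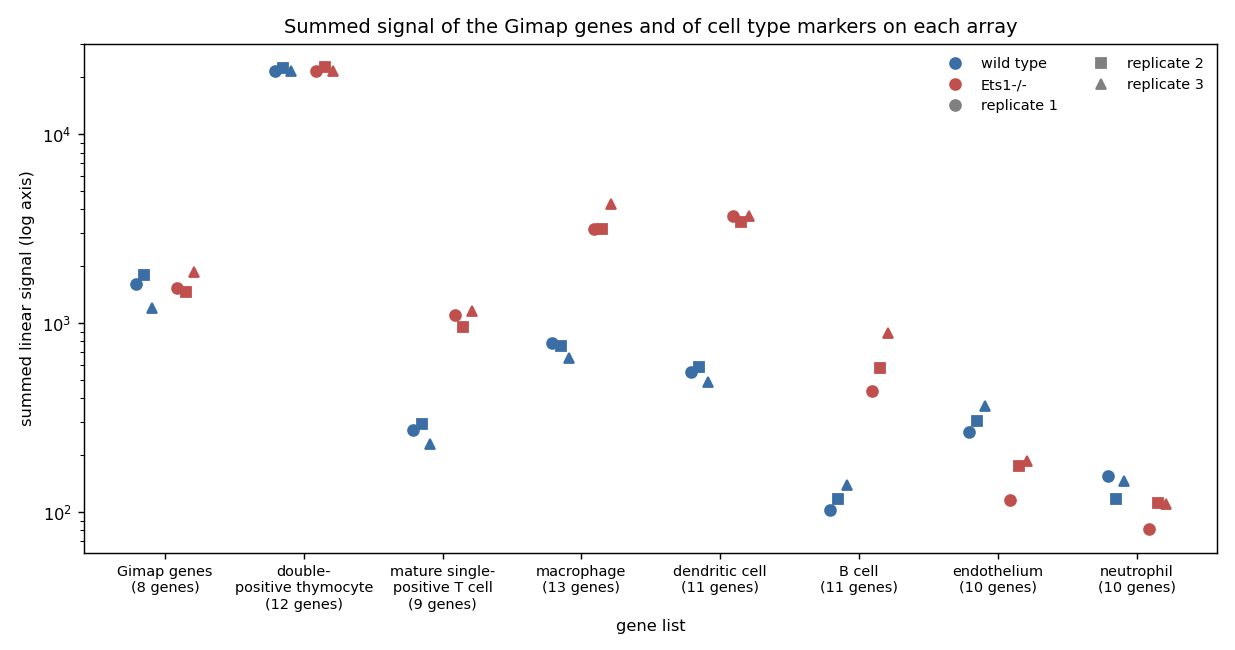
Summed linear signal (log axis) of the 8 Gimap genes and of 7 marker lists on the wild-type (blue) and Ets1-/- (red) arrays, with symbols for replicates. The Gimap sum and the double-positive sum overlap between groups. Sums of mature single-positive T-cell, macrophage, dendritic-cell and B-cell markers are higher on all 3 Ets1-/- arrays. Those of endothelial and neutrophil markers, most of them below the median signal in both groups, are lower on all 3 Ets1-/- arrays.

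**Figure D4:**
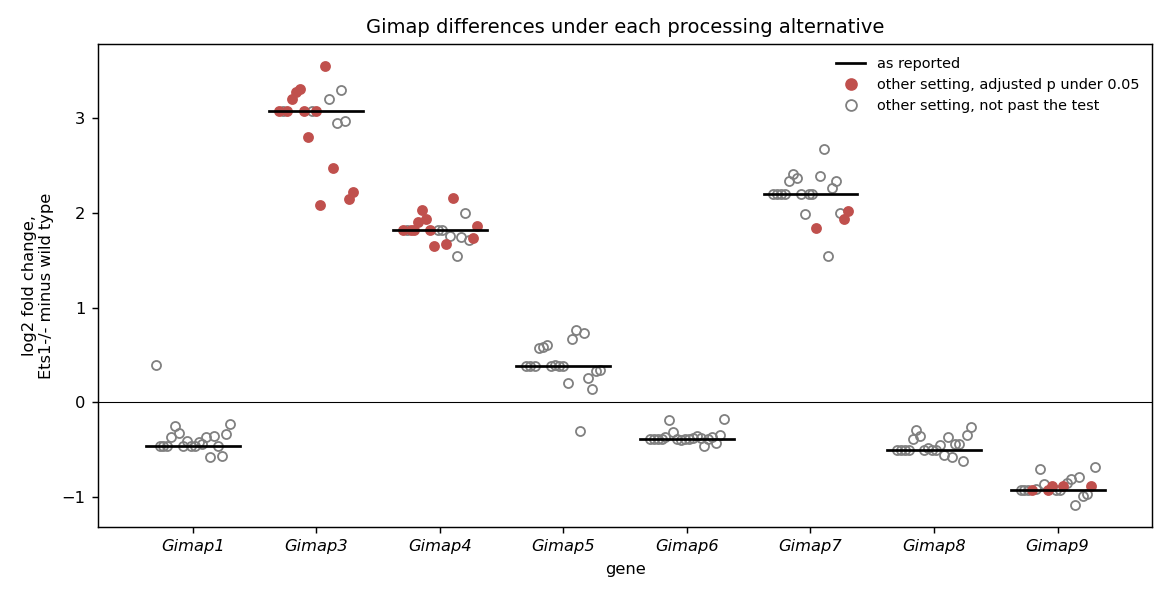
Log2 fold change of each Gimap gene as reported (black line) and under each processing alternative (points, filled where the adjusted p was under 0.05). Gimap3, Gimap4 and Gimap7 stay above 0 in every alternative shown, from 1.54 upwards, while calls differ between alternatives; Gimap1 and Gimap5 each change sign once.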

How the data were processed

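RNA of double-positive thymocytes was measured on 6 single-channel Affymetrix arrays, 3 of wild-type and 3 of Ets1-/- mice. The table deposited by the authors gives 41345 probe sets on a log2 scale, as read from the values (-15.86 to 16.36, 1.63% below 0). The authors used affy, per the submitters' processing notes. No version, background correction or normalization is named in the labels. The number of arrays limits the precision.

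Platform annotation named 1 gene for 23521 probe sets, several for 1814 and none for 16010. Each of 22180 genes was read at its brightest probe set, with no filter on dim ones. RefSeq (GRCm38.p6) gave names, positions and promoters. Ets1-/- minus wild type was fitted with limma 3.58.1 in R 4.3.3 (lmFit, eBayes, two-sided), with p adjusted by Benjamini-Hochberg over all genes and a threshold of 0.05. SE is limma's moderated standard error. Tables and plots were made in Python 3.11.15. Since the labels do not say how many animals an array held, p-values reflect only the spread between these arrays.

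The fit was tested on simulated data with known changes. Alternatives were other scalings, filters, probe-set rules, variance models, a pseudocount, the replicate number as a block and leaving out each array.

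The members and gene lists were chosen with earlier results of these data known. The text names all 8 members, the 3 nearest measured neighbours on each side and any that passed the test, the 5 genes nearest in pattern to the members' mean and the 3 nearest to each called member (clone, Riken and Gm names skipped), up to 4 genes with the smallest p in each list, and Klf2, S1pr1, Il7r, Bcl2 and Ets1. A further gene of the rule is not reported here. Krba1, Igf2bp3, Gabarap, the values of Dntt, and the dendritic-cell, gamma-delta, single-positive and lineage markers singled out were chosen after their values were seen. So were the pairs of members described and the promoters shown, with no rule set for Gimap6 among the lower members. Probe sequences were not used here, so hybridization between related Gimap transcripts was not examined.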

Additional observations from a re-analysis of the deposited data

How the results depend on the processing

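Over the alternatives run, Gimap3, Gimap4 and Gimap7 stayed positive and Gimap6, Gimap8 and Gimap9 negative. The sign turned for Gimap1 with the mean of its probe sets (0.39), for Gimap5 without wild-type replicate 3 (-0.30), and for Ets1 with median centring (0.11, also with the pseudocount) and without Ets1-/- replicate 3 (0.05; -0.19 to 0.05 with 1 array left out). Calls moved more than sizes. Gimap3 (3.07) and Gimap4 (1.82) were not called when every probe set was tested (adjusted p = 0.106 and 0.133), which adds tests, or without variance moderation (0.237 each), which leaves few degrees of freedom. With the replicate number as a block, Gimap4 (1.82) had an adjusted p of 0.106. The labels name litter-mate cohorts but not whether a number marks a litter, and deviations of same-numbered arrays correlated at -0.0719, -0.00784 and -0.0478. The block called 311 genes. Gimap7 was called with a pseudocount of 16 (1.84), also after quantile normalization (1.94) or median centring (2.02). Gimap9 was called above the 75th percentile of signal and with a trend and robust prior (-0.92), and with array weights, the pseudocount, and the pseudocount after quantile normalization (-0.88). Members called higher were therefore 0 with every probe set tested and without moderation, 1 with the 75th percentile filter, which removed Gimap3 and Gimap5, and 1 with the block. Members called lower were 1 in the 5 settings that called Gimap9. The cause of the other moves was not tested, and dim signal limits Gimap3, whose wild-type mean lay below the median probe set.

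Leaving out 1 array gave 0 to 1 members called higher and 0 lower, with -0.58 to -0.35 for Gimap1, 2.47 to 3.55 for Gimap3, 1.55 to 2.16 for Gimap4, -0.30 to 0.76 for Gimap5, -0.46 to -0.35 for Gimap6, 1.54 to 2.67 for Gimap7, -0.62 to -0.36 for Gimap8 and -1.08 to -0.79 for Gimap9. Of all genes 413 were called (69.5% higher), and 190 to 379 without 1 array. The count was 798 with quantile normalization, 745 with median centring, 777 with cyclic loess, 1172 with the trend and robust prior (52.7% higher), 1019 with array weights, 56 without moderation, 541 (42.7% higher) above the 75th percentile of signal and 907 with the pseudocount (53.4% higher). With the pseudocount it was 1350 after quantile normalization and 993 after median centring, both chosen after seeing the data. For 23 other named genes, 368 of 453 values kept direction and side of the threshold, 57 lost and 25 gained a call.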
